A study of Mus musculus with 6 samples.

Results

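Six3, Otx2, Hesx1, Rax, Lhx2 and Nkx2-1 are 6 genes that mark the future forebrain and eyes, and each was compared between embryos lacking Fz2 and Fz7 and embryos lacking Fz7 alone. They were taken by name, as the probe sets that the platform annotation assigns to exactly 1 of these symbols. All 6 had such a probe set, 8 in total, among 18193 genes measured. Where a gene had several, the one with the highest mean over the 6 arrays stands for it. RNA of whole mouse embryos at embryonic day 8.5 was hybridised to single-colour Affymetrix arrays. The 3 arrays of the double knockout came from embryos of genotype Fz2-/-; Fz7-/-, and the 3 arrays of the single knockout from embryos of genotype Fz2+/+; Fz7-/-. Embryos of both groups lacked Fz7, were of C57BL6/129 mixed background and carry the sex label of mixed gender, so the comparison addresses what loss of Fz2 adds where Fz7 is already gone. Embryos with intact Fz7 were not analysed here. The labels do not say how many embryos made up a sample or whether replicates came from separate litters. The p-values therefore set each group difference against the scatter among these samples only, part of which may be technical.

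The forebrain and the eyes arise from the most anterior part of the neural plate. Wnt ligands act through Frizzled receptors, the family to which Fz2 and Fz7 belong, and in the mouse the forebrain forms where Wnt signalling is kept low by secreted antagonists and by transcriptional repressors in the tissue itself. All 6 genes encode homeodomain transcription factors. Otx2 and Hesx1 are already active before and during gastrulation, in the epiblast or in the visceral endoderm below the future head as well as in anterior neural tissue. Six3 represses Wnt genes in the anterior neural plate of the mouse, Rax and Lhx2 act in the eye field and optic vesicle, and Nkx2-1 marks the ventral forebrain and the thyroid and lung buds.

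RefSeq promoter sequences of assembly GRCm38.p6 were available for 5 of the 6 genes, at 9 annotated starts. Those of Hesx1 and Lhx2 are shown because these genes varied most between arrays, and 1 of Otx2 because it held most of the motif matches. Each is the 250 bases before the start, read 5′ to 3′ on the gene's strand. Capitals mark matches on either strand to TAATTA, a core read by many homeodomain proteins, or to GGATTA, the core read by OTX-type homeodomains.
Hesx1, plus strand, chr14:27000112-27000361: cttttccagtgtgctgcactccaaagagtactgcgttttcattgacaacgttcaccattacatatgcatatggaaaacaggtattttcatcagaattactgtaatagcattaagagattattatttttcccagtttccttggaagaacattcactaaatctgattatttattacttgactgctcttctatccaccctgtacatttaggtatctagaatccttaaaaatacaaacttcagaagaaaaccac
Lhx2, first start, plus strand, chr2:38339031-38339280: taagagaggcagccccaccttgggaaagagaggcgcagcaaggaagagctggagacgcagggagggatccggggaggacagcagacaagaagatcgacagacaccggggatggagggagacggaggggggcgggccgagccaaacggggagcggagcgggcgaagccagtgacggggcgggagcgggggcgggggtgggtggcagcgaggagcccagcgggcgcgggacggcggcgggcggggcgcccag
Lhx2, second start, plus strand, chr2:38351058-38351307: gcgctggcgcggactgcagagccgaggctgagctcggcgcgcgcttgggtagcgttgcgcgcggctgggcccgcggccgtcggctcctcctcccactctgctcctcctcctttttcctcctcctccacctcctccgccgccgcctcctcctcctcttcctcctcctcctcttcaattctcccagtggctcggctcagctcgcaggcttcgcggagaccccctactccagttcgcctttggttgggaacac
Otx2, second start by coordinate, minus strand, chr14:48665110-48665359: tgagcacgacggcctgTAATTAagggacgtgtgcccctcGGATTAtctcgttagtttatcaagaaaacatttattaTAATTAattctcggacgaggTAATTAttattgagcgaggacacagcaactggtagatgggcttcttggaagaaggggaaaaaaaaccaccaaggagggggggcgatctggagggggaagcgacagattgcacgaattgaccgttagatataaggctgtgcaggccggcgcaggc
The Hesx1 window was rich in A and T, with a GC content of 34.0%, whereas the Lhx2 windows had 72.8% and 68.4%, against a median of 52.4% over all 32851 promoter windows of this length. The Otx2 window held TAATTA 3 times and GGATTA 1 time, with no overlap among these matches. A further Otx2 window, the fourth by coordinate, held TAATTA 1 time, and the other 7 windows held neither motif. The TCF/LEF-type letters CTTTGAT and CTTTGAA were in none of the 9 windows. Of all windows 4.84% held TAATTA, 6.25% GGATTA, 3.21% CTTTGAT and 4.46% CTTTGAA. A match describes letters only.

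Fzd2, the gene of Fz2, read 7.30, 7.69 and 7.63 (RMA value, log2) in double knockout replicates 1 to 3 and 9.86, 9.99 and 10.01 in single knockout replicates 1 to 3, which separates the groups as labelled. It was the only gene past the threshold of 0.05 for the adjusted p (limma, Benjamini-Hochberg over 18193 genes), or 0.00550% of those tested, with a log2 difference of -2.42 (adjusted p = 0.00567 in limma). That call was lost without double knockout replicate 3 or without any 1 of the single knockout arrays, at limma adjusted p-values of 0.0759 to 0.120, with log2 differences of -2.46 to -2.39. Double knockout replicate 1 stood apart: 479 genes, or 2.63%, differed by over 1 log2 unit from their mean in the remaining 5 arrays, against 18 to 37 genes for any other array. Of 5 primitive red cell markers 4 were lower in it by over 1 log2 unit, as were 5 of 5 cardiac markers, while 10 of 10 visceral endoderm markers and 3 of 4 placental markers were higher by over 1 log2 unit. Red cell markers were also low in double knockout replicate 3, with a median log2 difference of -3.20 from the single knockout mean, against -7.25 in replicate 1 and 0.21 in replicate 2. No marker of these tissues or of the somites passed the threshold, and median log2 differences were -3.42 for red cell, -0.78 for cardiac and -0.42 for somite markers and 0.77 for visceral endoderm and 1.09 for placental markers (-1.49, 0.011, -0.20, -0.16 and -0.015 without this array). The results for the 6 genes below are therefore given with and without this array. Pan-neural genes were measured on all arrays and summed on the linear scale to 8217, 9346 and 9910 in double knockout replicates 1 to 3 and to between 8888 and 9689 in the single knockout. Replicate 1 had the lowest sum, although Fabp7, named after its values were seen, read 9.49 there against 7.32 to 7.70 in the single knockout. The sum rests largely on Cdh2 and Sox2, also named after their values were seen. They read 11.05 and 10.91 in replicate 1 against 11.47 to 11.63 and 11.13 to 11.30 in the single knockout. The sum is therefore not a measure of the amount of neural tissue. Several genes of this list, such as Sox2 and Sox3, are also active in the epiblast.

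None of the 6 forebrain and eye field genes passed the test between the groups. Their adjusted p-values were 0.872 or higher (limma), 0 had an unadjusted p under 0.05 where 4.96% of all genes did, and 0 had groups that did not overlap where 11.4% of all genes did. Means were higher in the double knockout for 2 genes and lower for 4, with a median log2 difference of -0.063, against -0.0093 over all genes. When double knockout replicate 1 was left out the split was 3 to 3 and the median -0.0035, and again 0 had an unadjusted p under 0.05, where 6.67% of all genes did. The 2 largest differences, for Hesx1 and Lhx2, ran in opposite directions and were both led by double knockout replicate 1.

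**Figure D1:**
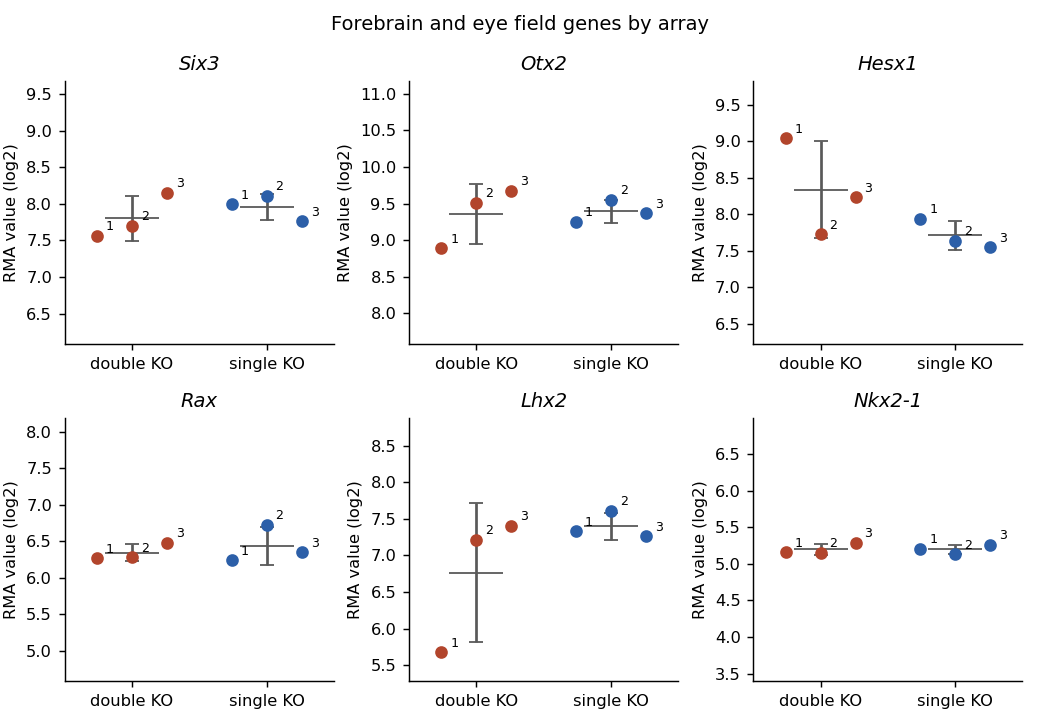
RMA values (log2) of the 6 genes on each array, numbered by replicate, with double knockout arrays in red on the left and single knockout arrays in blue on the right. Bars give the mean and SD of 3 arrays, and every panel spans the same number of log2 units. Hesx1 in double knockout replicate 1 (9.04) and Lhx2 in the same array (5.68) lie away from the other 5 arrays of their gene.

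Otx2, which is needed in the mouse for the head to form and for forebrain and midbrain identity, read 8.89, 9.51 and 9.68 in double knockout replicates 1 to 3 and 9.25, 9.55 and 9.37 in single knockout replicates 1 to 3. Double knockout replicate 1 was the lowest of the 6 arrays and double knockout replicate 3 the highest, so the single knockout arrays lay inside the range of the double knockout. The groups averaged 9.36 ± 0.41 in the double knockout and 9.39 ± 0.15 in the single knockout (SD, n = 3 each). The log2 difference was -0.032 (SE 0.21, limma adjusted p = 0.981, exact permutation p = 0.9), with a 95% interval of the fold from 0.694 to 1.38. The difference was on the other side of 0 without double knockout replicate 1, at 0.20 (95% interval -0.051 to 0.45, limma adjusted p = 0.796).

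Hesx1 encodes a repressor required in the mouse for the forebrain and the pituitary, and had the highest mean of the double knockout relative to the single knockout among the 6 genes. It read 9.04, 7.73 and 8.24 in double knockout replicates 1 to 3 and 7.94, 7.64 and 7.55 in single knockout replicates 1 to 3. Replicates 1 and 3 of the double knockout lay above every single knockout array, while its replicate 2 lay below single knockout replicate 1, so the groups overlapped. The log2 difference of 0.62 (SE 0.32), or 1.54-fold with a 95% interval from 0.906 to 2.62, did not pass (limma adjusted p = 0.872, exact permutation p = 0.2). Without double knockout replicate 1 it was 0.27 (95% interval -0.16 to 0.70, limma adjusted p = 0.841). The highest Hesx1 value thus came from the array that stood apart, and the next highest from double knockout replicate 3.

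Markers of the epiblast, where Hesx1 and Otx2 can also be active, were set beside the Hesx1 values. All 9 of 9 measured had a higher mean in the double knockout, with a median log2 difference of 0.23 and 0 past the threshold. Of all 18193 genes 8407 had a higher mean. Without double knockout replicate 1 again 9 of 9 were higher, with a median of 0.21. Summed on the linear scale they reached 12790, 7531 and 8076 in double knockout replicates 1 to 3 and 6808 to 7188 in the single knockout. These sums rest mostly on Lin28a and Dnmt3b, named after their values were seen, which read 12.02 to 12.43 and 11.16 to 12.31 over the 6 arrays. The sums are therefore not a measure of the amount of epiblast. Pou5f1, the gene of the pluripotency factor Oct4, had values of 10.77, 6.69 and 7.32 in the double knockout against 5.31 to 6.51 in the single knockout, and Dppa4 read 5.39 to 5.54 in the double knockout against 5.21 to 5.27. Neither passed the test (limma adjusted p = 0.872 each), and the level of Dppa4 was below the median of all genes on all 6 arrays. Not every marker followed Hesx1 in double knockout replicate 1: Tdgf1, named after its values were seen, was lowest there, at 5.87 against 6.52 to 7.43 in the remaining 5 arrays. The 10 visceral endoderm markers summed to 38600, 6628 and 6613 in double knockout replicates 1 to 3 and to between 6524 and 9117 in the single knockout, so their sum stood apart in replicate 1 and not in replicate 3. The part of these tissues in the Hesx1 and Otx2 values was not tested, and in bulk RNA fewer cells of a type and less RNA per cell cannot be told apart.

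Six3, needed in the mouse for the forebrain and the lens, read 7.56, 7.70 and 8.15 on its brightest probe set in double knockout replicates 1 to 3. The single knockout arrays read 7.99, 8.11 and 7.76. Double knockout replicates 1 and 2 were the lowest of the 6 arrays and its replicate 3 the highest. The log2 difference was -0.15 (SE 0.17, limma adjusted p = 0.897, exact permutation p = 0.5), with a 95% interval of the fold from 0.681 to 1.19, and -0.028 without double knockout replicate 1. The other 2 Six3 probe sets were dimmer. On the second, values of 4.59, 4.73 and 4.69 in the double knockout did not overlap 4.96, 4.81 and 4.94 in the single knockout, a log2 difference of -0.23 (SE 0.073) with an unadjusted p of 0.0165 and a limma adjusted p of 0.920 over all probe sets (exact permutation p = 0.1, the smallest that 3 against 3 arrays allow). The third differed by -0.038, so the 3 probe sets shared a sign but not a size.

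Wnt1, a gene that Six3 represses in the mouse, and Shh, which it activates in the ventral forebrain of the mouse, were looked up after their values were seen. Wnt1 read 5.78, 7.28 and 7.57 in double knockout replicates 1 to 3 and 6.67 to 7.15 in the single knockout, a log2 difference of -0.062 (SE 0.45). Shh, which is also made by the notochord and gut, read 10.12, 10.15 and 9.94 in the double knockout and 9.95, 10.21 and 10.29 in the single knockout, a log2 difference of -0.078 (SE 0.11). Neither passed the test. Replicates 2 and 3 of the double knockout lay above the single knockout for Wnt1, by 0.49 on average. That difference did not pass either (limma adjusted p = 0.71 without double knockout replicate 1). Wnt1 was above the median of all genes on only 3 of the 6 arrays, and a part of Six3 in its values was not tested.

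Rax, without which mice form no eyes, read 6.27, 6.28 and 6.48 in double knockout replicates 1 to 3 and 6.24, 6.73 and 6.35 in single knockout replicates 1 to 3. Double knockout replicate 1 was within the range of the single knockout here, and single knockout replicate 2 was the highest of the 6. The log2 difference was -0.095 (SE 0.14, limma adjusted p = 0.914, exact permutation p = 0.7), with a 95% interval of the fold from 0.746 to 1.18. It was -0.060 without double knockout replicate 1.

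Lhx2, which in the mouse drives the optic vesicle towards the optic cup and sets cortical identity, had the widest range of the 6 genes over the 6 arrays, 1.93 log2 units. It read 5.68, 7.21 and 7.41 in double knockout replicates 1 to 3 and 7.33, 7.61 and 7.26 in single knockout replicates 1 to 3. Only double knockout replicate 1 was far from the rest, at a difference of -1.73 from the single knockout mean, and the remaining 5 arrays lay within 0.40 log2 units of each other. The log2 difference of -0.64 (SE 0.44, limma adjusted p = 0.872, exact permutation p = 0.4) had a 95% interval of the fold from 0.308 to 1.35. With that array left out it was -0.090 (95% interval -0.38 to 0.20, limma adjusted p = 0.929), a difference not detectable at this number of arrays.

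Nkx2-1, required in the mouse for the hypothalamus, thyroid and lung, read 5.16, 5.15 and 5.29 in double knockout replicates 1 to 3 and 5.21, 5.13 and 5.26 in single knockout replicates 1 to 3. All 6 arrays lay within 0.16 log2 units, and the groups had the same mean of 5.20 (log2 difference 0.00030, SE 0.066, limma adjusted p = 0.999, exact permutation p = 1.0). The log2 difference was 0.021 without double knockout replicate 1. The level of Nkx2-1 was below the median of all genes on all 6 arrays, as was that of Rax, and RMA compresses differences near background, so a change of a low transcript would be understated. Of 5 thyroid and lung primordium markers 0 passed the threshold and 4 had a lower mean in the double knockout, as had 9786 of all 18193 genes. These 4 also read below the median of all genes on all 6 arrays, and 1 of them, Pax8, is also counted among the midbrain and hindbrain genes. The 2 with the smallest unadjusted p were Pax8, with a log2 difference of -0.48 (-0.16 without double knockout replicate 1), and the surfactant gene Sftpc, with -0.20, both at a limma adjusted p of 0.872.

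**Figure D2:**
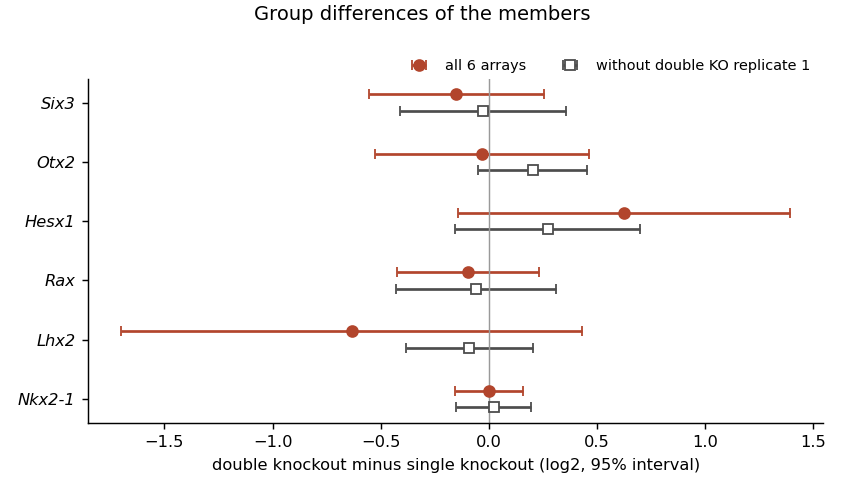
Log2 difference of each gene, double knockout minus single knockout, with the 95% interval of the limma fit, for all 6 arrays (red circles) and without double knockout replicate 1 (open squares). Every interval includes 0; those of Hesx1 and Lhx2 narrow and move towards 0 when that array is left out.

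The double knockout varied more from array to array than the single knockout for 5 of the 6 genes, Rax being the exception, and the same held for 63.4% of all genes. Double knockout replicate 1 was the lowest of the 6 arrays for 3 genes (Six3, Otx2 and Lhx2) and the highest for Hesx1. Double knockout replicate 3 was the highest for 3 genes, Six3, Otx2 and Nkx2-1. Set against the mean of the 5 others, replicate 1 of the double knockout differed by 1.22 for Hesx1, -1.69 for Lhx2, -0.58 for Otx2, -0.38 for Six3, -0.14 for Rax and -0.050 for Nkx2-1. The 2 genes beyond 1 log2 unit compare with the 2.63% of all genes given above. Taken as differences from the pan-neural mean of the same array, replicate 1 again lay below the single knockout mean for Lhx2 (-1.77) and above it for Hesx1 (1.28), and for Rax it lay at -0.21. That mean of log2 values, which includes the high Fabp7 value, was 8.875 in replicate 1 and 8.775 to 8.88 in the single knockout. Unlike the linear sum it was not lowered in replicate 1, so these differences do not adjust for the low sum. The part of neural tissue amount in them was not tested.

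The list of other transcription factors of the forebrain and eye field had 18 measured genes. None passed the threshold, 5 had a higher and 13 a lower mean in the double knockout, and the median log2 difference was -0.12. The split was 9 to 9 and the median -0.023 without double knockout replicate 1. In that array 4 of the 18 lay lower by over 1 log2 unit and 0 higher. These 4, named after their values were seen apart from Six6, were Pax6, a regulator of eye and forebrain (-2.64 against the mean of the remaining 5), Foxd1 (-1.80), Six6 (-1.53) and Emx2 (-1.20). Pax6 read 6.37, 9.11 and 9.11 in double knockout replicates 1 to 3 and 8.92, 8.98 and 8.95 in the single knockout, so replicates 2 and 3 lay just above the single knockout arrays.

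**Figure D3:**
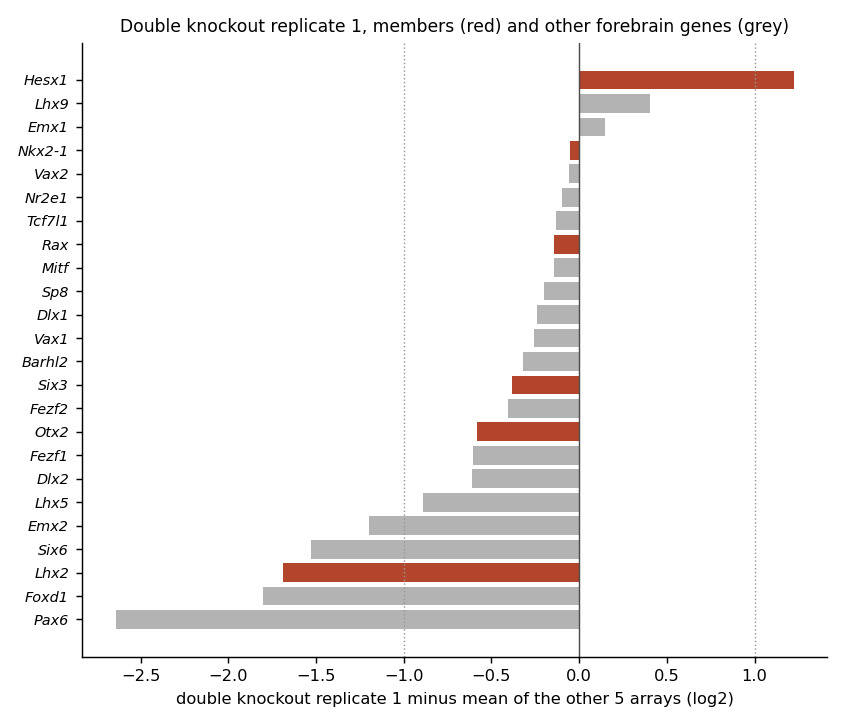
Double knockout replicate 1 minus the mean of the 5 others (log2) for the 6 genes in red and the 18 other forebrain and eye field genes in grey, sorted. Dotted lines mark 1 log2 unit in either direction. Lhx2 (-1.69) lies among Pax6, Foxd1, Six6 and Emx2, while Hesx1 (1.22) is at the opposite end and Rax and Nkx2-1 are near 0.

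Six6, an eye and pituitary gene of the same family as Six3, was lower in all 3 double knockout arrays without passing the test. It read 4.48, 5.62 and 5.63 in double knockout replicates 1 to 3 and 6.20, 6.60 and 6.01 in the single knockout, so the groups did not overlap, as for 11.4% of all genes. The level of Six6 was below the median of all genes on all 6 arrays. The log2 difference was -1.03 (SE 0.33), with an unadjusted p of 0.0194 and a limma adjusted p of 0.872. It was -0.65 without double knockout replicate 1 (limma adjusted p = 0.701). Mitf, which directs the pigmented layer of the retina, had the next smallest p, with a log2 difference of -0.17 (SE 0.069, limma adjusted p = 0.872). It too was below the median of all genes on all 6 arrays.

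Genes of neighbouring regions and of the tissues that induce the head also gave no calls. Midbrain and hindbrain genes numbered 11 measured, 3 with a higher and 8 with a lower mean in the double knockout (median log2 difference -0.062). The direction turned without double knockout replicate 1, with 6 higher, 5 lower and a median of 0.0078. En2 had the smallest p, reading 5.06, 5.89 and 5.72 in the double knockout and 6.32, 7.31 and 7.37 in the single knockout, with a limma adjusted p of 0.872. Its log2 difference was -1.44 (SE 0.34), and it did not turn without double knockout replicate 1, at -1.19. Pan-neural genes split 6 to 6 (median 0.034), or 7 to 5 with a median of 0.11 without that array, and their smallest p belonged to Sox21 (0.19, SE 0.067) and Pou3f1 (0.34, SE 0.14). Head organiser and anterior inducer genes, which include the Wnt antagonists that protect the forebrain, had 10 higher and 3 lower of 13 measured (median 0.17). Of all 18193 genes 8407 were higher. Leaving out double knockout replicate 1 gave 9 higher and 4 lower, with a median of 0.059. The BMP antagonist gene Nog differed by 0.27 (SE 0.10) and the secreted Wnt antagonist gene Sfrp5 by 0.21 (SE 0.099), both at a limma adjusted p of 0.872. The level of Nog was below the median of all genes on all 6 arrays, and its groups overlapped. The array medians of these lists overlapped between the groups, whereas those of the epiblast markers did not. How often the medians of other gene sets separate in this way was not computed, and the list was chosen with earlier results known. Among the 9 epiblast markers 4 had groups that did not overlap, as had 11.4% of all genes.

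**Figure D4:**
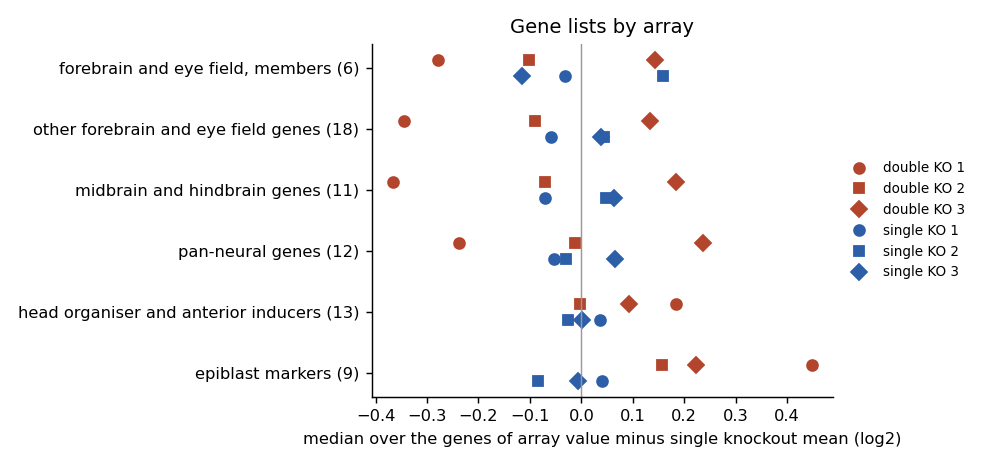
For each list, the median over its measured genes (number in brackets) of the array's log2 value minus the single knockout mean, with double knockout arrays in red above single knockout arrays in blue. Double knockout replicate 1 is lowest for the forebrain (-0.28 for the 6 genes and -0.35 for the 18 others), midbrain and hindbrain (-0.37) and pan-neural lists (-0.24). It is highest for the head organiser and anterior inducer list (0.18) and for the epiblast markers (0.45).

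Genes whose profile over the 6 arrays was most like that of Hesx1 and Lhx2, the 2 with a range of at least 1 log2 unit, were found by the root mean square difference of log2 values centred on each gene's own mean. For Hesx1 these were Abcc2 (0.076 log2 units), Eras (0.092) and Nkx1-2 (0.096). For Lhx2 they were Ets1 (0.053), Apobec2 (0.072) and Cck (0.091). In each of these profiles double knockout replicate 1 was the extreme array, so the likeness rests largely on that 1 array. Eras, for example, read 9.36, 7.98 and 8.30 in double knockout replicates 1 to 3 and 7.84 to 8.07 in the single knockout, and Ets1 read 8.65, 10.26 and 10.49 in the double knockout and 10.27 to 10.59 in the single knockout. None of the 6 passed the threshold.

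**Figure D5:**
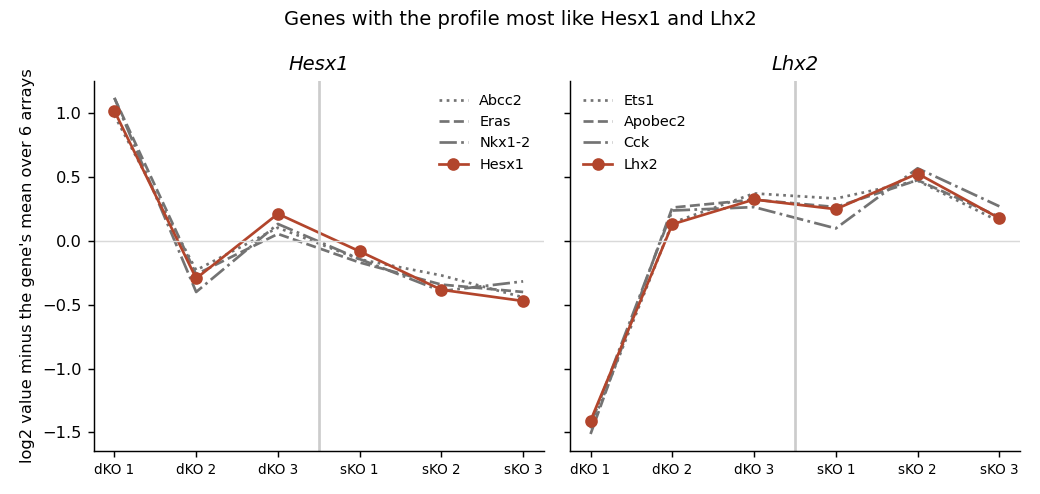
Log2 values centred on each gene's mean over the 6 arrays (dKO, double knockout; sKO, single knockout) for Hesx1 and Lhx2 in red and the 3 genes most like each in grey. Hesx1 and its neighbours peak in double knockout replicate 1, and Lhx2 and its neighbours are lowest there.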

How the data were processed

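Total RNA was extracted from whole embryos with Trizol and RNeasy columns and labelled with biotin, per the labels' protocols. The deposited table holds log2 values of 45101 probe sets, which the authors computed with RMA, as the submitters' processing notes state. This method corrects background, equalises the distributions of the arrays and summarises each probe set. The log2 scale was taken from the values, and the RMA version and raw scans were not used here. Groups and replicate numbers came from sample titles. Gene names came from the platform annotation: 34945 probe sets had 1 symbol, 932 had several and 9160 had none, and the last 2 kinds were left out. Gene identifiers of the 6 genes matched RefSeq. Each gene is represented by its brightest probe set. The groups were compared in limma 3.58.1 under R 4.3.3 (lmFit, eBayes, two-sided, Benjamini-Hochberg over 18193 genes, threshold 0.05), with an exact two-sided permutation test for single genes whose smallest possible p is 0.1. The fit was also run on simulated data with equal spread in both groups. No array stood apart in those data, so that run does not cover an array like double knockout replicate 1. The number of arrays limits the precision. The 6 genes and the 11 lists beside them were chosen with earlier results of these data known, from knowledge of mouse development. Named from each list are up to 5 genes past the threshold or, with none, the 2 of smallest unadjusted p, and also the 3 most alike genes of each gene with a range of at least 1 log2 unit. Predicted genes and cDNA clones were skipped for likeness. Lists are described by counts and medians without a test.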

Additional observations from a re-analysis of the deposited data

How the results depend on the processing

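None of the 6 genes passed the threshold under any of the 83 combinations of gene and alternative that were run, where the smallest limma adjusted p was 0.737. Hesx1 stayed above 0, between 0.27 and 0.93 on the log2 scale, and Lhx2 below 0, between -0.96 and -0.090, with the value nearest 0 in both cases obtained without double knockout replicate 1. Six3 stayed between -0.32 and -0.028. The 3 genes with differences close to 0 changed sign. Otx2 was at 0.12 with array weights, which gave double knockout replicate 1 a weight of 0.281, and leaving out each array in turn moved it from -0.19 to 0.20. The same moved Rax from -0.19 to 0.049 and Nkx2-1 from -0.044 to 0.031. The number of genes past the threshold was 1, Fzd2, in the main setting, 0 with the mean of the probe sets of a gene and 2 with each probe set tested alone, both of them Fzd2. Leaving out each array in turn gave 0 to 1 genes: 0 without double knockout replicate 3 or without single knockout replicate 1, 2 or 3. The median of the 6 genes ran from -0.18 to 0.0076 over the alternatives. The labels do not say whether replicate numbers pair the samples. Deviations of same-numbered arrays from their group means correlated at 0.094, -0.037 and -0.13 across genes. With 3 arrays a group, and 1 of them standing apart, such values cannot decide whether the samples were paired. With the replicate block 1 gene was called and 0 of the 6, at a limma adjusted p of 0.855 for Hesx1 and 0.856 for Lhx2. With dim genes left out 3 of the 6 genes were tested. Lhx2, above the gene median on 5 arrays, was left out there because its low value in double knockout replicate 1 lowered its mean. With 3 arrays a group, the 95% intervals of Hesx1 and Lhx2 include both no difference and a change of more than 2-fold.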
